A study of Rattus norvegicus with 12 samples.

Results

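The 10 enzymes described here build bile acids from cholesterol in the liver and join them to amino acids: Cyp7a1, Cyp27a1, Cyp7b1, Cyp39a1, Hsd3b7, Cyp8b1, Akr1d1, Amacr, Slc27a5 and Baat. They were chosen by name, and each of the 10 had 1 row in the deposited table, out of 16592 named genes. Liver RNA of 6 PCK rats and 6 controls was measured on Affymetrix arrays, and the animals were males of 10 weeks. The PCK rats, listed under the strain Crj:CD/SD, carry a spontaneous Pkhd1 mutation and form cysts in the bile ducts and kidneys; the controls are listed only as Sprague Dawley. The labels name no treatment for either group. Both ate a standard chow with 19% protein and were anesthetized with isoflurane before death. The labels give neither the colony of the controls nor the hour of death, so a difference between colonies cannot be told apart from the disease.

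Bile acids are detergents that carry cholesterol out of the body and let the gut take up fat. In the classic route Cyp7a1 adds the first hydroxyl group to cholesterol, and in the alternative route Cyp27a1 oxidizes the side chain first and Cyp7b1 follows on the ring. Both routes then share the ring changes by Hsd3b7 and Akr1d1, side chain shortening in peroxisomes, and conjugation with taurine or glycine. Cyp8b1 decides between cholic acid and the chenodeoxycholic acid family. Bile acids returning to the hepatocyte restrain the pathway through the nuclear receptor FXR, encoded by Nr1h4.

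PCK livers had lower RNA for most of the pathway. Of the 10 enzymes 7 were lower in PCK livers, none was higher and 3 did not pass the test (limma, Benjamini-Hochberg adjusted over 16592 genes, threshold 0.05). At an unadjusted p under 0.05 Cyp7a1 was lower too, and still none was higher. Over all named genes 21.0% were called lower and 17.4% higher, so 45.3% of the called genes were higher; with arrays centred on hepatocyte markers this share was 59.9%, and the 7 enzymes were still lower. Among the 1804 genes whose probes gave a mean signal at least that of Cyp39a1, 31.2% were lower and 30.8% higher. For all of the 7 called enzymes, every PCK liver lay below every control liver, a pattern found in 10.6% of named genes. The median difference of the 10 enzymes was -0.60 on the log2 scale, against -0.00667 over all genes and -0.0 among those 1804 genes. The differences ran from -2.18 for Cyp8b1 to 0.10 for Cyp7b1, while 5% of all genes lay below -0.36. Many of all the genes were dim, and neither this percentile nor the 10.6% was taken among the brighter genes alone. Signals are log2 values on 1 shared distribution per array, from 5.14 to 13.98 with a median of 5.66, so 1 unit is a factor of 2. Signals do not rank the transcript levels of different genes, since probes differ in brightness.

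**Figure D1:**
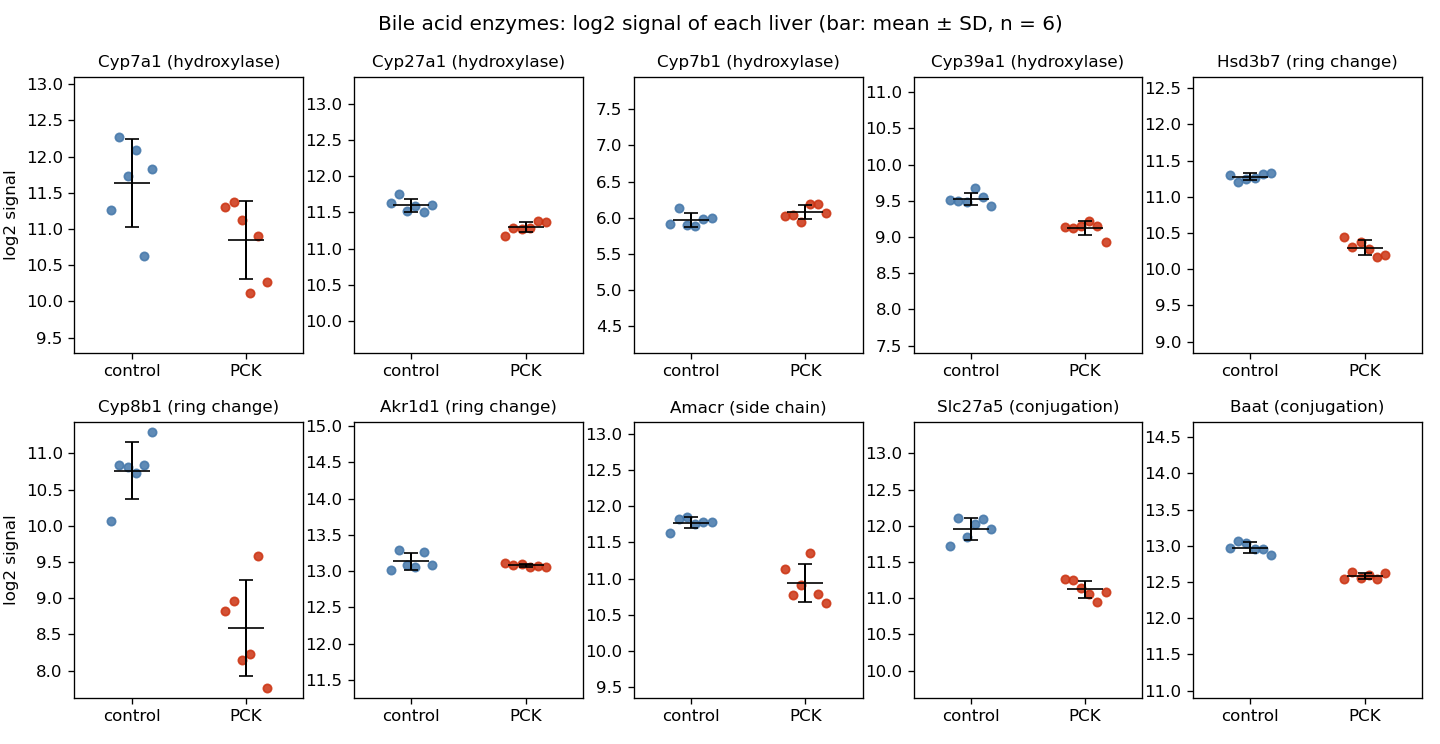
Log2 signal of each liver for the 10 enzymes, 6 control livers in blue and 6 PCK livers in red, with mean and SD bars; every panel spans the same number of log2 units. The groups are separate in 7 panels and overlap for Cyp7a1, Cyp7b1 and Akr1d1.

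Cyp8b1, the sterol hydroxylase needed for cholic acid, showed the largest fall of the enzymes. Its signal in control livers was 10.06 at the lowest, 10.83 at the median and 11.30 at the highest, and in PCK livers 7.76, 8.53 and 9.59. The groups did not overlap, although both were spread widely, and PCK 6 was the lowest of all livers. The mean fell from 10.76 ± 0.40 to 8.58 ± 0.665 (log2, SD, n = 6 each), a difference of -2.18 ± 0.30 (SE; 95% interval -2.84 to -1.52; limma adjusted p = 0.000179). On the linear scale this is 22.1% of the control signal. Only 20 of the 16592 genes had a more negative difference. Leaving out any 1 liver kept it between -2.38 and -2.01.

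The region before the start of Cyp8b1 is shown because this gene fell most, and that of Baat because it holds a motif found in few rat promoters. Both are the 250 bases upstream of the annotated start, from RefSeq, build GRCr8, minus strand, read 5′ to 3′: chr8:130457593-130457842 for Cyp8b1 and chr5:68656138-68656387 for Baat. Capitals mark motif matches. In Cyp8b1 they are a pair of adjoining copies of CAAGGNC, the core recognised by the liver receptor LRH-1, which begin 89 and 82 bases before the start. In Baat they are CAAAGTCCA, a motif of the hepatocyte factor HNF4, beginning 90 bases before it.
Cyp8b1: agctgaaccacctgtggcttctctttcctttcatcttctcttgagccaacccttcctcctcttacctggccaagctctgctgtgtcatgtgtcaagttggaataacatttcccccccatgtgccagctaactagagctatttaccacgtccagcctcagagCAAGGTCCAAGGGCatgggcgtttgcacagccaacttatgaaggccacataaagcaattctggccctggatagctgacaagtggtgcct
Baat: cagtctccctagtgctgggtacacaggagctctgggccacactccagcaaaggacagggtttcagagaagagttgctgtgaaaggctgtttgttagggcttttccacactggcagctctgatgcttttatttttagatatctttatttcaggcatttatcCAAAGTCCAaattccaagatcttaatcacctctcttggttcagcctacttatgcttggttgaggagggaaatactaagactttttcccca

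RefSeq promoters were at hand for 7 of the 10 enzymes, while Cyp7a1, Cyp7b1 and Akr1d1 had no entry. The Cyp27a1 window, chr9:83713282-83713531, lies inside the annotated span of the gene. The Amacr window, chr2:61673085-61673334, runs past the start of its annotated span. Searched on both strands, CAAAGTCCA was in 1 of these 7 and in 0.338% of 33469 rat promoter windows of the same length. CAAGGNC, which was added after the Cyp8b1 sequence had been read, was in 3 of the 7 (Cyp27a1, Cyp8b1 and Amacr) and in 15.8% of all windows. The nuclear receptor half-site AGGTCA was in 3 (Cyp27a1, Cyp39a1 and Amacr) and in 14.1% of all. In Cyp27a1 a match of CAAGGNC and one of AGGTCA overlap. The longer LRH-1 motif TCAAGGNCA (1.33% of all windows) and the direct repeat of AGGNCA with 1 base between (0.368%) matched none of the 7. Nor did the HNF1 half-site GTTAAT (6.45%), the D-box TTATGNAA (3.28%) or the C/EBP motif TTGCNNAA (9.22%). These are matches of letters in 1 window.

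The other enzymes of the sterol ring differed from each other. Hsd3b7, the oxidoreductase that acts after the first ring hydroxylation in both routes, had the smallest p of the 10. Control livers ran from 11.21 through a median of 11.28 to 11.33, and PCK livers from 10.17 through 10.29 to 10.45. The gap between the groups, 0.754, was larger than the spread of either, and the PCK livers were more spread than the controls (SD 0.108 against 0.0481). The difference was -0.98 ± 0.0458 (log2, SE; adjusted p = 1.14e-07), or 50.7% of the control signal. Akr1d1, the reductase that bends the ring system, did not pass the test. Its control values were 13.02, 13.09 and 13.29 (lowest, median, highest) and its PCK values 13.06, 13.08 and 13.11. All PCK livers lay within the control range, and the difference was -0.05 ± 0.0451 (adjusted p = 0.411), with a 95% interval from -0.15 to 0.05.

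Cyp7a1, which sets the rate of the classic route, was the most variable of the 10 among control animals. Control livers ran from 10.63 through a median of 11.78 to 12.27, and PCK livers from 10.12 through 11.01 to 11.37. The groups overlapped: controls 1 and 5, at 11.26 and 10.63, lay below the highest PCK liver, and all 6 PCK livers lay below the control median. The mean was 11.64 ± 0.602 in control and 10.85 ± 0.534 in PCK livers (log2, SD, n = 6 each). The difference, -0.79 ± 0.311 (SE), did not pass after adjustment (limma p = 0.0271, adjusted p = 0.0659; 95% interval -1.47 to -0.11 before adjustment; exact permutation p = 0.0433, 2-sided). The call depended on control 5 and on the setting. Without control 5 the difference was -0.99 (adjusted p = 0.0148). With any other single liver left out the adjusted p stayed between 0.0549 and 0.134. Tests limited to the brighter genes, or with arrays weighted by quality, put Cyp7a1 past the threshold with all livers kept (adjusted p = 0.0339 and 0.0416).

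Of the other sterol hydroxylases, Cyp27a1 and Cyp39a1 were lower and Cyp7b1 did not pass. Cyp27a1, the mitochondrial enzyme that starts the alternative route, had control values of 11.50, 11.60 and 11.75 (lowest, median, highest) and PCK values of 11.18, 11.29 and 11.38. The groups were separated by 0.119, and the difference was -0.31 ± 0.0452 (log2, SE; adjusted p = 0.000299), or 80.9% of control. Cyp39a1, a hydroxylase of oxysterols, fell from 9.52 ± 0.0851 to 9.12 ± 0.0972 (log2, SD, n = 6 each). PCK 6, at 8.93, lay apart from the other PCK livers at 9.13 to 9.22, and the control range was 9.43 to 9.68. The difference was -0.40 ± 0.0501 (adjusted p = 8.64e-05). Cyp7b1, the hydroxylase that follows Cyp27a1, was dim in both groups, at 5.97 ± 0.0947 and 6.07 ± 0.0983, not far above the median of the table. Control livers ran from 5.89 to 6.14 and PCK livers from 5.94 to 6.19, so they overlapped almost fully. The difference of 0.10 ± 0.0529 did not pass (adjusted p = 0.154; 95% interval -0.01 to 0.22). It passed as higher without control 2, at 0.14 (adjusted p = 0.0425), and with the arrays centred on hepatocyte markers, at 0.13 (adjusted p = 0.049).

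The late steps were lower. Amacr, the racemase that turns the side chain into the form peroxisomes can shorten, was tightly grouped in control livers, at 11.63, 11.78 and 11.85 (lowest, median, highest). In PCK livers it was at 10.67, 10.86 and 11.36. No values overlapped, and PCK livers were spread 3.34 times as widely by SD, with PCK 4 the highest and PCK 6 the lowest. The difference was -0.83 ± 0.103 (log2, SE; adjusted p = 9.14e-05), or 56.3% of control. Slc27a5, the bile acid ligase that attaches coenzyme A, gave 11.72, 11.98 and 12.11 in control and 10.95, 11.11 and 11.26 in PCK livers. Its difference of -0.83 ± 0.0744 (adjusted p = 8.76e-06) left 56.1% of the control signal. Baat, which transfers the activated bile acid to taurine or glycine, fell by less, from 12.98 ± 0.0709 to 12.58 ± 0.0476 (SD, n = 6 each). Its PCK livers, 12.54 to 12.64, lay below all controls, 12.87 to 13.07, and the difference was -0.39 ± 0.0334 (adjusted p = 6e-06). The 7 enzymes with separate groups each reached an exact permutation p of 0.00216, the smallest that 6 against 6 can give.

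**Figure D2:**
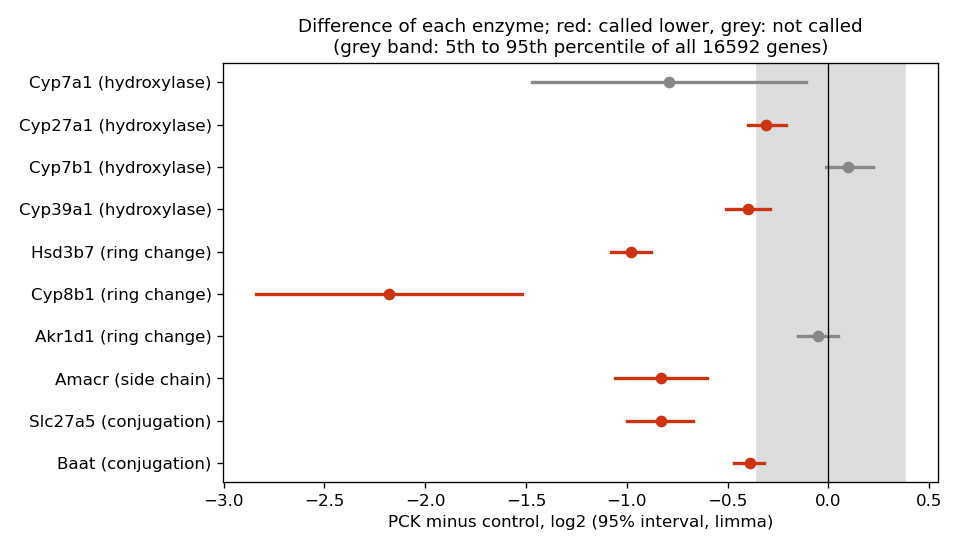
Difference of each enzyme between PCK and control livers (log2, point) with its 95% interval (line), in pathway order; red enzymes passed the test as lower and grey ones did not. The grey band holds the middle of all 16592 genes, dim ones included, from -0.36 to 0.38. Cyp8b1 lies farthest to the left.

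In the genome the 10 genes are scattered. Per RefSeq on GRCr8, Slc27a5 lies at chr1:82688742-82699335 and Hsd3b7 at chr1:191842688-191845919. Amacr (chr2:61673291-61685381) and Cyp7b1 (chr2:102419011-102586047) share chromosome 2, and Akr1d1 lies at chr4:67121288-67154543. Cyp7a1 (chr5:24174505-24184202) and Baat (chr5:68647166-68656137) are on chromosome 5, and Cyp8b1, a gene of only 1971 bases, is at chr8:130455622-130457592. Cyp39a1 (chr9:24727817-24804060) and Cyp27a1 (chr9:83712402-83743222) are on chromosome 9. The array's probe positions within the genes are not known here.

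Relations between enzymes within a group were not resolved. Of 34 relations of Cyp7a1 or Cyp8b1 with the other enzymes, each over 6 livers of 1 group, none passed after adjustment. By Spearman rho none could alone: its smallest exact permutation p for 6 livers is 0.00278, which adjusts to 0.0944 for a single perfect relation. The exact p of Pearson r can go lower, so a perfect relation might have passed by it. These negative results therefore do not settle whether the enzymes vary together. The smallest p was that of Cyp7a1 with Akr1d1 in PCK livers (Pearson r = 0.81, exact permutation p = 0.0694, adjusted p = 0.94; Spearman rho = 0.81, p = 0.0722), and r was 0.44 without the 2 livers farthest from the median. Cyp7a1 and Cyp8b1 gave r = 0.28 in control (rho = 0.03; exact permutation p = 0.567 and 1.0) and 0.55 in PCK livers (rho = 0.43; p = 0.283 and 0.419). Without the 2 farthest livers these were -0.39 and -0.41.

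Among 8293 other genes above the median brightness, those most like Cyp7a1 over the 12 livers, each centred on its group mean, were Def8 (r = 0.91), Rwdd2b (0.89), Pex7 (0.87), Pom121 (0.86) and Snx19 (0.86). The most opposite were Cd9, a membrane tetraspanin (r = -0.95), Gsn, the actin-severing protein gelsolin (-0.93), and Vash1 (-0.88). For Cyp8b1 the most alike were Stk17b (0.91), Abtb1 (0.87), Vnn3 (0.85), Nnmt (0.84) and Auh (0.84), and the most opposite Bmp2k (-0.93), Shank2 (-0.87) and Flna (-0.85). These values describe 12 arrays that share 1 normalization, and were picked as the extremes of 8293. None of the other 9 enzymes was among the genes most like Cyp7a1, and the nearest, Cyp8b1, had r = 0.42 and rank 1165.

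Other genes of bile acid metabolism, from a list of 22 of which 21 were measured, were lower in 13 cases and higher in 3, and 5 did not pass. The list's median difference was -0.22. Sult2a1, a sulfotransferase of bile acids and steroids, differed most. Its signal was 10.46, 11.35 and 11.60 (lowest, median, highest) in control livers and 7.64, 8.18 and 8.81 in PCK livers. No livers overlapped, and the difference was -2.93 ± 0.246 (log2, SE; adjusted p = 5.66e-06). Acox2, the peroxisomal oxidase that acts on the side chain right after Amacr, fell by 0.97 (adjusted p = 2.6e-06), with control livers at 11.87 to 12.09 and PCK livers at 10.77 to 11.21. The next peroxisomal enzymes fell less, Hsd17b4 by 0.28 and the thiolase Scp2 by 0.36 (adjusted p = 0.000263 and 0.000537). Slc27a2, a second ligase for bile acid precursors, fell by 0.30 and Acnat2, an acyltransferase related to Baat, by 0.46 (adjusted p = 3.4e-05 and 0.000176). Ces1d, a carboxylesterase, fell by 1.18 (adjusted p = 0.000508).

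Against this direction, Stard4, a carrier that moves cholesterol between membranes, rose by 0.68 (adjusted p = 0.00187). Cyp2c22, a P450 of the same subfamily as the mouse muricholic acid enzyme Cyp2c70, rose by 0.50, with PCK livers at 13.35 to 13.40 and control livers at 12.72 to 12.96 (adjusted p = 1.55e-06). Ch25h, the third called higher, was near the bottom of the range in both groups, at 5.27 and 5.30. Of 10 measured genes of peroxisome biogenesis 8 were lower and none higher. Pex11a, which helps peroxisomes divide, fell by 1.07 (adjusted p = 0.000128). Pex14, Pex5 and Pex3 fell by 0.27, 0.23 and 0.23 (adjusted p = 0.00308, 0.00291 and 0.00163).

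Regulators of the pathway were lower or not called. Of 22 measured, 11 were lower, none was higher and 11 did not pass, with a median of -0.16. Nr1h4, the bile acid receptor, ran from 10.87 to 11.21 in control and from 10.20 to 10.61 in PCK livers and fell by 0.59 (adjusted p = 6.75e-05). Nr0b2, which encodes the repressor SHP and is a target of that receptor, was very uneven: 6.23, 6.70 and 8.94 (lowest, median, highest) in control and 6.90, 7.50 and 8.20 in PCK livers. Its difference of 0.30 ± 0.53 was within this spread (adjusted p = 0.704). Hnf4a, a hepatocyte nuclear receptor that acts on many of these enzymes, fell by 0.29 (adjusted p = 0.00136). Nr5a2, encoding LRH-1, was at -0.11 (adjusted p = 0.114), and passed only in the fit with the replicate number as a block. Fgfr4, the receptor for the gut hormone FGF15, fell by 0.21 (adjusted p = 0.0353, 0.0152 to 0.0785 over the alternatives), and its partner Klb was at -0.03 (adjusted p = 0.902). The call of Fgfr4 as lower held in only 10 of 23 alternatives.

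The xenobiotic receptors on the list differed most. Nr1i3, encoding CAR, fell by 2.42 (adjusted p = 4.55e-06), from 8.97 to 10.20 in control livers to 6.86 to 7.22 in PCK livers, and Nr1i2, encoding PXR, fell by 0.81. Foxo1, a factor of the fasting response, fell by 0.53 (adjusted p = 4.62e-06). Of 7 measured regulators that carry the daily rhythm, 3 were lower and 1 higher, against 21.0% and 17.4% of all named genes. Klf15 fell by 0.62, Rora by 0.28 and Tef by 0.23 (adjusted p = 1.73e-05, 0.000891 and 0.00325). Bhlhe40 rose by 0.60 (adjusted p = 0.0377, 0.0112 to 0.0963 over the alternatives), a call that held in 12 of 23 alternatives. Cyp7a1 is known for a strong daily rhythm, and the part of the hour of death in its spread was not tested.

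**Figure D3:**
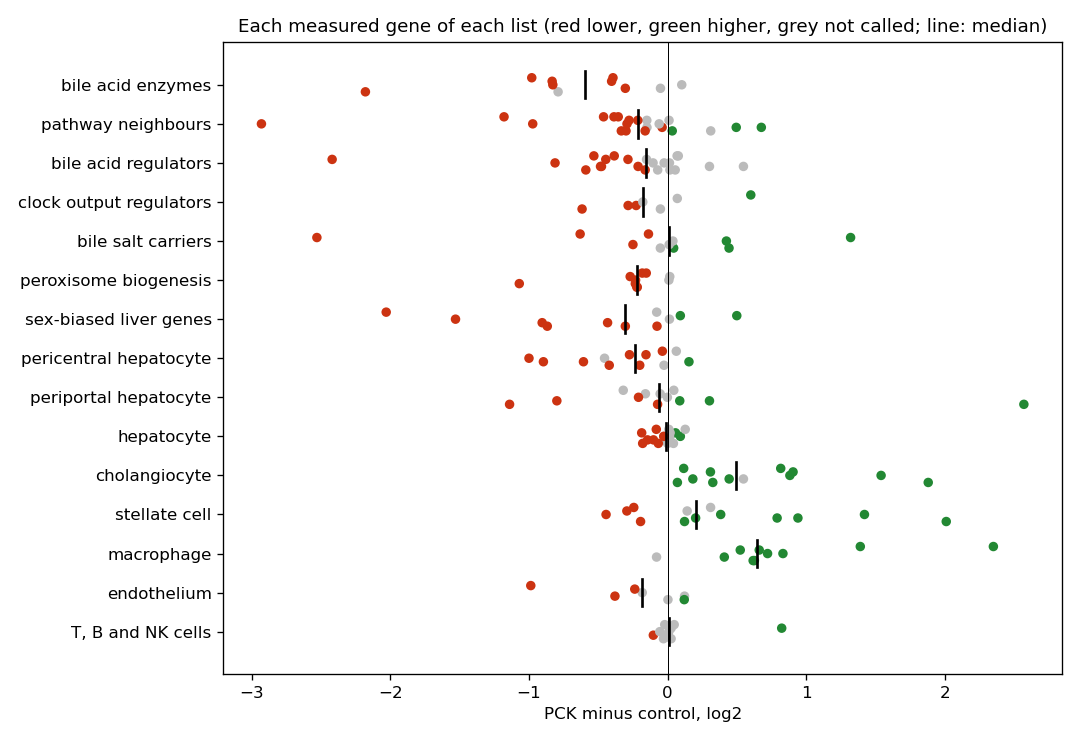
Difference of every measured gene between PCK and control livers (log2), 1 row for each list, with the list's median as a line. The 10 enzymes have a median of -0.60, the hepatocyte markers lie close to 0 and cholangiocyte and macrophage markers lie mostly to the right.

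Among carriers of bile salts and sterols, 4 of 11 measured were higher and 4 lower. Over all named genes 17.4% were higher and 21.0% lower. Slc51a, 1 of the 4 higher, rose by only 0.04, from 5.42 to 5.46, near the bottom of the range. Slc10a1, which takes bile salts up from blood, was at -0.05 (adjusted p = 0.0725), and Slco1b2 fell by 0.25. Abcc3, an exporter to the blood, rose by 1.32 from 5.84 to 6.17 in control to 6.74 to 8.13 in PCK livers (adjusted p = 0.000281), and Abcb4, which moves phospholipid into bile, rose by 0.42. Abcg2 rose by 0.44 (adjusted p = 0.00138). Both parts of the sterol exporter, Abcg5 and Abcg8, fell by 2.53 and 0.63 or more (adjusted p = 8.03e-06 and 0.000225). Their PCK signals, 5.25 to 5.42 and 5.40 to 5.45, lay under the median of the table, where signal and background were not told apart, so these sizes can only be lower bounds; the same holds for Abcg2, whose control mean was 5.65. Of 11 genes with sex-biased liver expression or a part in its control, 7 were lower and 2 higher. The list was not split by the direction of the bias, so its count does not speak for either sex's pattern. The 2 higher were Cyp2a1, by 0.50, and Ghr, by 0.09 (adjusted p = 0.000991 and 0.031). The male-specific Cyp2c11 fell by 0.87, Cyp4a2 by 1.53 and Cyp3a2 by 0.91 (adjusted p = 8.76e-05, 2.53e-06 and 0.0116). The repressor Bcl6 fell by 2.03 (adjusted p = 0.0259, 0.00837 to 0.0843 over the alternatives). Its control livers were uneven, from 5.87 to 9.63, and overlapped the PCK livers at 5.45 to 6.38. The PCK median of Bcl6, 5.60, lay under the median of the table, so this size is uncertain.

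In whole liver tissue, fewer hepatocytes and less RNA per hepatocyte cannot be told apart. Of 18 general hepatocyte markers 7 were lower and 2 higher, with a median of -0.00814. Among the 1804 genes at least as bright as Cyp39a1, 31.2% were lower and 30.8% higher. The mean signal of the hepatocyte markers was 13.06 to 13.09 in control and 13.03 to 13.06 in PCK livers. The largest falls were those of Hpd (-0.19) and Asgr1 (-0.18), smaller than that of any called enzyme, and Ttr was at -0.02 (adjusted p = 0.644). These markers lie near the top of the scale, where Alb is fixed by the shared distribution. With each array centred on them the difference of Cyp8b1 was -2.15, that of Hsd3b7 -0.95 and that of Baat -0.37, and all 7 calls held. Pericentral markers, from the zone where Cyp7a1 is known to be highest, were lower in 8 of 12 and higher in 1, led by Tbx3 (50.0% of control) and Slc1a2 (53.8%). The PCK means of Tbx3 and Slc1a2, 5.77 and 5.92, lay not far above the median of the table, so these sizes are uncertain. Lgr5, among the 8, lay under that median in both groups, at 5.35 and 5.31. Periportal markers were lower in 4 and higher in 3 of 12, with Hal at -1.14 and Aldh1b1 at 2.57 or more, its control mean of 5.56 being under the median of the table.

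Markers of other cells moved with the groups. Of 12 cholangiocyte markers 11 were higher and none lower, and their mean signal was 5.97 to 6.19 in control and 6.56 to 6.95 in PCK livers. Krt19 rose by 1.88 and Epcam by 0.90, and Tspan8 by at least 1.54 from control signals of 5.24 to 5.30, near the bottom of the range, while Cftr, Cldn7, Muc1 and Elf3 had means over all 12 livers at or under the median of the table. Of 10 macrophage markers 9 were higher and none lower (mean signal 8.23 to 8.84 and 9.18 to 9.69), led by Lyz2 at 2.35 and Lgals3 at 1.39. Stellate cell markers were higher in 7 and lower in 4 of 13 (6.54 to 6.88 in control livers, and above this in every PCK liver, up to 7.29; Dcn 2.01, Rgs5 1.42). The 4 lower ones were Hgf (-0.44), Reln (-0.29), Lrat (-0.24) and Lhx2 (-0.19), each with every PCK liver below every control. Endothelial markers were higher in 1 and lower in 3 of 7, against 17.4% and 21.0% of all named genes. Their mean signal was 7.33 to 7.53 in control and 7.12 to 7.31 in PCK livers, with Clec4g at -0.99 and Tek at -0.38. Of 10 genes listed for T, B and NK cells 9 were at or under the median of the named genes, 1 was higher (Cd4, 0.82) and 1 lower (Prf1, -0.10). The T cell genes Cd3e, Cd3d and Cd8a were not called, so the rise of Cd4 was not assigned to lymphocytes. The part of these cells in the enzymes' differences was not tested.

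**Figure D4:**
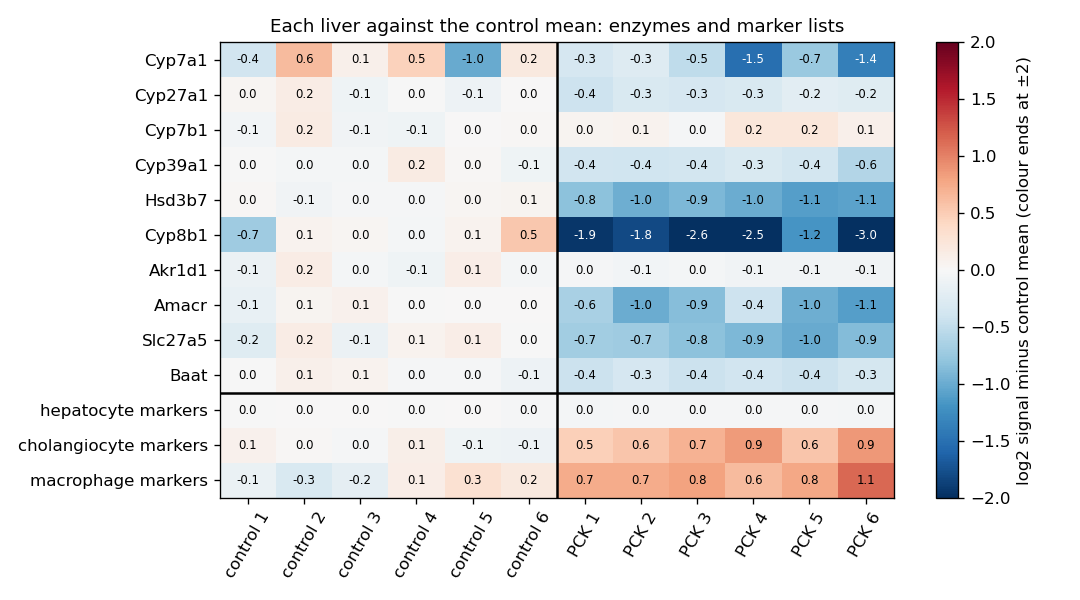
Log2 signal of each liver minus the control mean, for the 10 enzymes and the mean of 3 marker lists; colours end at 2 units on either side. Cyp8b1 and Hsd3b7 are low in each PCK liver, Cyp7a1 is uneven in both groups, and PCK 6 has the highest cholangiocyte and macrophage levels.

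Liver by liver, PCK 6 had the highest cholangiocyte and macrophage levels, 6.95 and 9.69, and the lowest Cyp8b1, Amacr and Cyp39a1 of the 6 PCK livers. Without PCK 6 these enzymes still differed, by -2.01, -0.77 and -0.37. PCK 5 was the lowest PCK liver for as many enzymes, Hsd3b7, Slc27a5 and Baat. Its cholangiocyte and macrophage levels were 6.63 and 9.31, both below those of PCK 6. Of 40 relations of the enzymes with the cholangiocyte or macrophage level within a group, none passed after adjustment. By Spearman rho a single perfect relation could reach an adjusted exact permutation p of only 0.111. The signs were mixed. In PCK livers Cyp7a1 gave r = -0.89 with the cholangiocyte level (exact permutation p = 0.0306, adjusted p = 0.583; rho = -0.66, p = 0.175), and r = -0.22 without the 2 farthest livers, so that relation rests on those. Cyp8b1 gave r = -0.81 with it (exact permutation p = 0.0583, adjusted p = 0.583; rho = -0.77, p = 0.103) and -0.63 without the 2 farthest. In control livers Cyp8b1 gave r = -0.71 (exact permutation p = 0.107, adjusted p = 0.681; rho = -0.89, p = 0.0333) and -0.79. The cholangiocyte level includes Onecut1, which is also on the list of regulators and was not called. Of these markers it ranged most widely within each group, from 7.16 to 9.04 in control and 7.68 to 10.49 in PCK livers. The level is therefore not a measure of bile duct cells alone, and the relations were not tested without Onecut1. With the macrophage level, Cyp39a1 gave r = -0.97 in PCK livers (exact permutation p = 0.0319, adjusted p = 0.583; rho = -0.49, p = 0.356), which turned to 0.90 without the 2 farthest. In control livers Baat gave r = -0.81 with it (exact permutation p = 0.0556; rho = -0.90, p = 0.0278, adjusted p = 0.444), and Hsd3b7 had the opposite sign, r = 0.74 (exact permutation p = 0.104; rho = 0.89, p = 0.0333, adjusted p = 0.444).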

How the data were processed

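Total RNA of frozen liver was isolated with Trizol and hybridised as biotinylated cRNA, per the labels' protocols. The authors deposited log2 signals of 19239 probe sets on 12 arrays; that they are log2 was read from their values, 5.14 to 13.98. After sorting, the 12 columns hold identical values: the arrays have 1 distribution in common. How probes were summarised, and on which array, is not given in the sources used here. Giving arrays 1 distribution removes any change in total RNA per liver, and detection calls were not used here.

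The platform annotation gives 1 symbol to 16592 probe sets and none to 2647; 3326 older symbols were updated through the RefSeq table of GRCr8. The test was limma 3.58.1 (R 4.3.3; lmFit and eBayes, 2-sided) on 6 PCK against 6 control arrays with no filter and Benjamini-Hochberg adjustment over 16592 genes at 0.05. Levels are means ± SD, differences are PCK minus control with the moderated SE. Permutation tests of group differences were exact over all 924 assignments of arrays. Those of correlations were exact over all orders of the 6 livers of a group. Arrays are biological replicates per the labels, which name no batch. Their number limits the precision.

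The enzymes and lists were chosen with earlier results of these data known. All 10 enzymes are named; of each context list up to 4 called genes with the largest difference, of each marker list up to 2, and for Cyp7a1 and Cyp8b1 the 5 genes most like them and 3 least like them. Other genes were named after their values were seen: Hsd17b4, Scp2, Slc27a2, Acnat2, Cyp2c22, Ch25h, Nr0b2, Nr5a2, Hnf4a, Fgfr4, Klb, Slc10a1, Slco1b2, Abcb4, Slc51a, Cyp2a1, Ghr, Lgr5, Epcam, Hgf, Reln, Lrat, Lhx2 and Ttr. Listed genes that no named probe set covers, such as Abcb11, Fgf15 and Glul, were not analysed here. Other settings changed centring, threshold, brightness filter, named or all probe sets, or the model (trended robust variance, weighted arrays, a block for replicate numbers), or dropped 1 array. Centring by median deviations, and leaving out control 5 and PCK 1, the arrays of lowest weight in their groups, were added after the data were seen. The fit was tested on simulated data. Figures were drawn with matplotlib 3.10.9.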

Additional observations from a re-analysis of the deposited data

Results flagged for a closer look

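Values of 1 liver that stood apart from the other 5 of its group, by Dixon's test at 95%, were found in 12 of 140 groups (70 genes in 2 groups), or 8.57%, where chance flags about 1 in 20. Among the enzymes this was Cyp39a1 in PCK 6, at 8.93 with the other PCK livers at 9.13 to 9.22. In the same liver Krt19 was at 8.28 (others 7.38 to 7.70), Lyz2 at 11.68 (11.17 to 11.31), Lgals3 at 8.19 (7.26 to 7.58) and Prf1 at 5.62 (5.56 to 5.58). Among genes next to the enzymes in the pathway, Hsd17b4 was at 11.26 in PCK 1 (others 11.48 to 11.51), Slc27a2 at 12.54 in PCK 2 (12.40 to 12.45) and Stard4 at 6.24 in control 6 (6.82 to 7.04). Cyp3a2 was at 10.75 in PCK 3 (others 12.08 to 12.29), Hpd at 13.53 in control 2 (13.37 to 13.42) and Tspan8 at 5.30 in control 4 (5.24 to 5.25). Lrat was at 6.96 in PCK 5 (others 7.18 to 7.29).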

How the results depend on the processing

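The 7 enzymes called lower, Cyp8b1, Hsd3b7, Amacr, Slc27a5, Cyp39a1, Baat and Cyp27a1, kept direction and call in each of the 23 alternatives. The number of enzymes called lower was 7 or 8, with Cyp7a1 as the eighth in 4 alternatives. The number called higher was 0, but 1 (Cyp7b1) with arrays centred on hepatocyte markers, and 0 to 1 with 1 liver left out; the cause was not tested. Of 70 genes run under the alternatives, 59 kept direction and call in all 23 and none changed sign when called. Ch25h and Prf1 were run in 22, since the brightness filter removed them. The genes most and least like Cyp7a1 and Cyp8b1, and the cholangiocyte markers named only for a dim signal, were not among the 70. Nor were Slc51a, Cyp2a1, Ghr and Lgr5. With the replicate number as a block, 7 enzymes were lower and 0 higher, and 5423 genes were called in all against 6362. Same-numbered livers correlated between -0.1368 and 0.1654 in their deviations, which shows no clear pairing by number. Whether same-numbered livers were handled together is not known. Centring changed the split of all called genes: 45.3% of 6362 were higher in the deposited values (3480 lower), 59.9% of 5399 with arrays centred on hepatocyte markers (2164 lower), and 63.2% of 6904 with arrays shifted by the median deviation of the brightest 25% of genes. Cyp7b1 lies near the bottom of the range, where signal and background were not told apart.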
